A study of Mus musculus with 40 samples.

Results

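The miR-17-92 cluster is a group of 6 microRNAs that are cut from 6 hairpins of the same transcript, Mir17hg. It was followed in mouse blood by taking, from a table of 1915 microRNAs, the 6 rows that carry the names of its main strands: mmu-miR-17-5p, mmu-miR-18a-5p, mmu-miR-19a-3p, mmu-miR-20a-5p, mmu-miR-19b-3p and mmu-miR-92a-3p, written without the species prefix from here on. Small RNA libraries had been made from whole blood of male C57B/6J mice, with 10 libraries at each of 4 ages, 12, 13.5, 15 and 16.5 months, or 40 in all. The mice were single housed and bled from the orbital sinus, and the same animals were followed over time. The study's methods place the first blood before any behavioural work and the later ones after memory tests in the water maze, while its scheme of the design places habituation to the maze before the first blood as well. A group kept in home cages was also part of the study, and the labels say neither to which group the mice of these libraries belonged nor which library came from which mouse. Age, training and repeated bleeding cannot be told apart. Every test between ages therefore took the libraries as separate samples, and its p-value measures only the spread between them.

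MicroRNAs are short RNAs that load into Argonaute proteins and lower the output of messenger RNAs whose sites pair with the seed, the bases 2 to 8 of the microRNA. The miR-17-92 transcript is induced by Myc and is best known for sustaining the growth and survival of blood cell progenitors and B cells, and for driving lymphoma when it is overexpressed. Known targets include the cell cycle inhibitor p21 and the death protein Bim for the miR-17 type of seed. The members share their transcript, while the amount of each mature strand also depends on how its hairpin is cut, which strand is kept and how long it lasts.

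The mature sequences show which members can be told apart by their reads and which share a seed, here in capitals (RefSeq, GRCm38.p6, written 5′ to 3′).
miR-17-5p: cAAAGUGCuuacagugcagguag
miR-20a-5p: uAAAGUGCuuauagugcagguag
miR-18a-5p: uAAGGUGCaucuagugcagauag
miR-19a-3p: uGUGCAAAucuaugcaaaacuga
miR-19b-3p: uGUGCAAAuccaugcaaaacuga
miR-92a-3p: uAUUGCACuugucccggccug
The 6 members thus have 4 seeds. miR-17-5p and miR-20a-5p have the same seed and differ by the substitutions C1U and C12U (base of miR-17-5p, position from the 5′ end, base of miR-20a-5p). miR-19a-3p and miR-19b-3p have the same seed and differ by U11C alone (base of miR-19a-3p first). The seed of miR-18a-5p differs from that of miR-20a-5p by G4A (base of miR-18a-5p first), and miR-92a-3p has a seed of its own. Base composition differed as well, from 34.8% G and C in miR-19a-3p, 39.1% in miR-19b-3p and in miR-20a-5p, 43.5% in miR-18a-5p and 47.8% in miR-17-5p to 57.1% in miR-92a-3p.

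On the mouse genome (GRCm38) Mir17hg runs from 115042879 to 115046727 on the plus strand of chromosome 14, and all 6 hairpins lie in an exon of this non-coding RNA within 836 bases. Their order is Mir17 (chr14:115043671-115043754), Mir18 (chr14:115043851-115043946), Mir19a (chr14:115044000-115044081), Mir20a (chr14:115044157-115044263), Mir19b-1 (chr14:115044305-115044391) and Mir92-1 (chr14:115044427-115044506). A related cluster on the minus strand of chromosome X holds a further hairpin for miR-19b-3p (Mir19b-2, chrX:52741983-52742066) and for miR-92a-3p (Mir92-2, chrX:52741838-52741928). Their mature strands are identical in sequence, so the reads of these 2 members cannot be assigned to a chromosome.

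The libraries held between 2469196 and 21386209 counts, most of them of the red cell microRNA miR-486. Outside all rows of miR-486 there were 93002 to 1739959 counts per library, with medians of 855062 at 12 months, 698499 at 13.5 months, 267135 at 15 months and 597338 at 16.5 months. Levels are given as log2 CPM, the counts of a microRNA relative to the counts of its library after scaling with TMM factors, which ranged from 0.242, in library 3 at 15 months, to 1.745. The labelled tissue was checked by its markers. Those of red cells, miR-451a, miR-144, miR-16 and 1 of the 2 identical miR-486 rows, held 46.6% to 49.2% of the counts in every library. The totals hold both of these rows, so this share understates the red cell part. At 12 months the median total was 1.25e+07 counts, and the median outside miR-486 was 855062. The other lists of marker microRNAs were small, with 0.0470% to 0.536% of the counts for the myeloid list, 0.00780% to 0.0976% for the lymphoid list and at most 0.000713% for miR-126a of platelets and endothelium. The liver microRNA miR-122-5p reached at most 1.71e-05% of the counts. Only 1 of 3 muscle microRNAs had any reads, with at most 0.00125% of the counts. All 3 of the neural and retinal list had reads, with at most 0.00148% together. In such bulk samples, fewer cells of a type and less of a microRNA per cell cannot be told apart.

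Abundance differed widely between the 6 members, although all are 21 to 23 bases long and have a hairpin in the same transcript. The reads of miR-19b-3p and miR-92a-3p include any that came from chromosome X. miR-92a-3p accounted for 99.8% ± 0.196 (SD, n = 40) of the reads of the 6 members. It had 27736 reads in the shallowest case, a median of 91319.5 and at most 613163 reads per library, and made up 17.5% ± 5.98 (SD, n = 10) of the counts outside miR-486 at 12 months. Next came miR-19b-3p with 10 to 565 reads (median 116.5) and miR-17-5p with 3 to 184 reads (median 55.5). miR-19a-3p had 0 to 55 reads (median 6), miR-20a-5p 0 to 49 reads (median 7) and miR-18a-5p 0 to 11 reads (median 1). The last was at 0 in 10 of the 40 libraries, where a count of 0 allows up to 3 reads. miR-92a-3p was above every other member in each library, and the difference between miR-19a-3p and miR-20a-5p was within the spread of either.

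Because of these depths, 2 of the 6 members, miR-19b-3p and miR-92a-3p, passed the filter of the study, which asks for more than 100 reads in at least 50% of libraries and left 105 microRNAs. miR-17-5p, miR-19a-3p and miR-20a-5p were tested after lowering that minimum to more than 1 read, which left 345 microRNAs. miR-18a-5p, with 121 reads in all and more than 1 read in 19 libraries, passed neither and is given by its counts. All adjusted p-values between ages are from the quasi-likelihood test of edgeR, with Benjamini-Hochberg adjustment over the 105 or the 345 microRNAs of the filter in question. Libraries counted beside a difference are those of the later age above or below the mean of the earlier age, as the difference was. The ranges of both ages can still overlap.

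Over the 4 ages, miR-19b-3p (adjusted p = 9.66e-07), miR-19a-3p (adjusted p = 4.67e-05) and miR-17-5p (adjusted p = 0.00149) changed, whereas miR-20a-5p (adjusted p = 0.270) and miR-92a-3p (adjusted p = 0.917) did not pass the test. The background was high, since 61% of the 105 microRNAs and 39.1% of the 345 also passed. Both members with the seed of miR-19 changed, and 1 of the 2 with the seed of miR-17 passed.

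**Figure D1:**
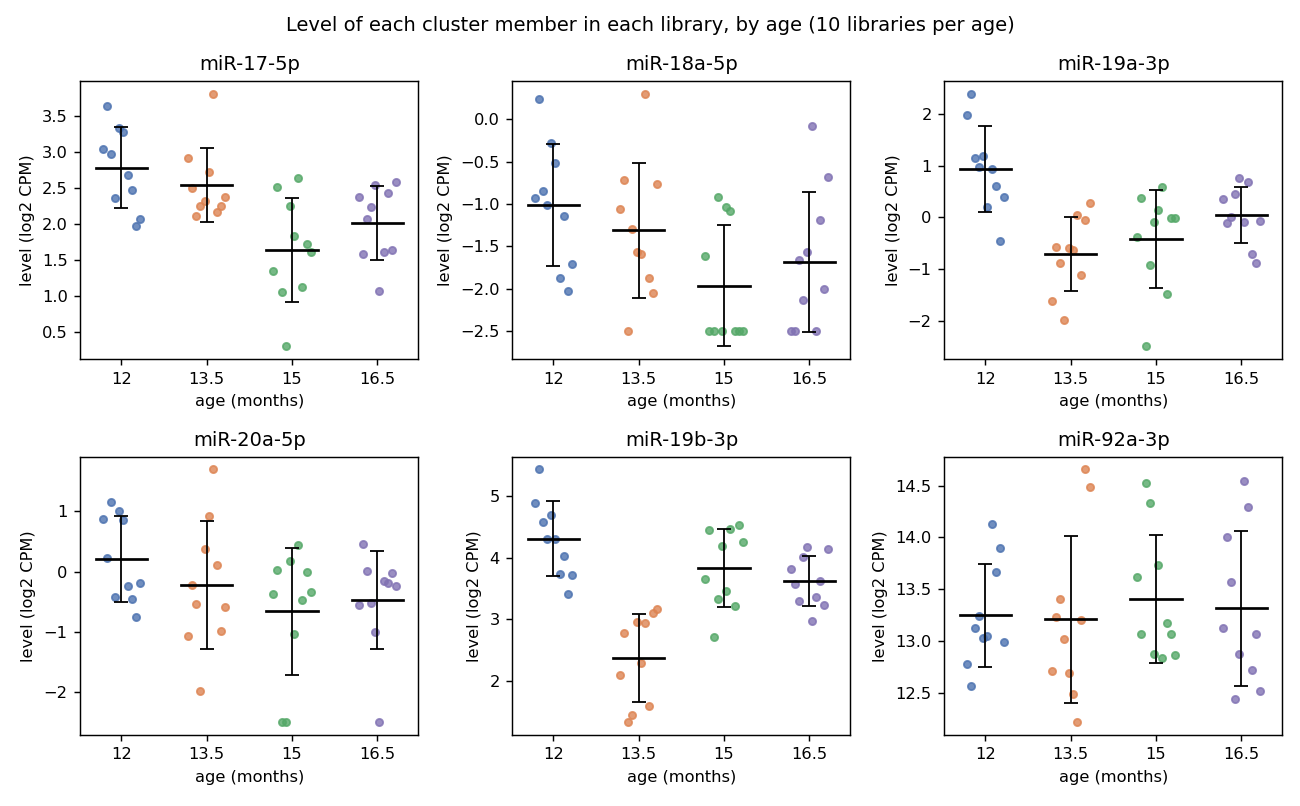
Level of each cluster member in each of the 40 libraries, as log2 CPM (vertical axes, a separate range for each panel) by age in months; bars are the mean and SD of 10 libraries. miR-19b-3p had its lowest mean at 13.5 months (2.37), where no library reached the lowest of those at 12 months, and miR-92a-3p had means from 13.21 to 13.41. The share of other microRNAs with ranges as far apart was not determined.

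The largest movements were those of the miR-19 seed at 13.5 months. miR-19b-3p had 137 to 565 reads at 12 months (median 347.5), 27 to 236 at 13.5 months (median 53), 10 to 148 at 15 months (median 80.5) and 14 to 313 at 16.5 months (median 131.5). On the scaled log2 level it ran from 3.42 to 5.44 at 12 months (median 4.30), from 1.32 to 3.17 at 13.5 months (median 2.53), from 2.71 to 4.53 at 15 months (median 3.92) and from 2.98 to 4.17 at 16.5 months (median 3.59). All libraries at 13.5 months lay below all of those at 12 months, and 9 of the 10 libraries at each later age lay above the highest of the 13.5-month libraries. For this and the like counts below, the share of all tested microRNAs with ranges as far apart was not determined.

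miR-19b-3p fell by 1.94 on the log2 scale at 13.5 v 12 months (SE 0.26, adjusted p = 2.06e-07, 10 of 10 libraries below the 12-month mean). It was among 15 of 105 microRNAs, or 14.3%, that were lower. It was then higher at 15 v 13.5 months by 1.48 (SE 0.27, adjusted p = 1.57e-05, 10 of 10 libraries), where 17.1% of the 105 were higher. By 16.5 months it stood 1.20 above 13.5 months (SE 0.26, adjusted p = 0.000244, 10 of 10 libraries), where 18.1% were higher. Among the 105 differences, the first ranked second from the bottom and that at 15 v 13.5 months ranked 1 from the top. With library totals in place of TMM factors, the difference at 15 v 13.5 months was 0.79 and no longer passed (adjusted p = 0.0713), while the median of all 105 moved to -0.81.

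Compared with 12 months, the later ages of miR-19b-3p were lower by less. At 15 v 12 months the difference was -0.46 (SE 0.26, adjusted p = 0.211), or -1.22 with library totals (adjusted p = 0.00595), where the median of all 105 was -0.84, and at 16.5 v 12 months miR-19b-3p fell by 0.74 on the log2 scale (SE 0.25, adjusted p = 0.0273, 10 of 10 libraries), where 10.5% of the 105 were lower. The latter call was lost without library 1 (-0.67) or library 2 (-0.60) of the 12-month group or library 9 of the 16.5-month group (-0.72), with adjusted p from 0.0516 to 0.0944. It was also lost with library totals (-0.95, adjusted p = 0.177) and with no filter (-0.83, adjusted p = 0.0540), where the difference was larger, and with 3 factors of unwanted variation removed (-0.41, adjusted p = 0.0511), where it was smaller. The difference at 16.5 v 15 months was -0.28 (SE 0.26, adjusted p = 0.468), and it was 0.27 with library totals.

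miR-19a-3p, which shares its seed and all but a single base with miR-19b-3p, had far fewer reads. They numbered 8 to 55 at 12 months (median 31), 1 to 28 at 13.5 months (median 5.5), 0 to 9 at 15 months (median 4) and 2 to 23 at 16.5 months (median 5.5). Its log2 level was 0.94 ± 0.83 (SD, n = 10) at 12 months, -0.71 ± 0.72 at 13.5 months, -0.42 ± 0.95 at 15 months and 0.05 ± 0.54 at 16.5 months, so that 7 of the 10 libraries at 13.5 months lay below the lowest of the 12-month libraries.

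miR-19a-3p fell by 1.91 on the log2 scale at 13.5 v 12 months (SE 0.33, adjusted p = 4.45e-05, 10 of 10 libraries), where 9.86% of the 345 microRNAs were lower. It was also lower than at 12 months by -1.45 at 15 months (SE 0.38, adjusted p = 0.00783, 10 of 10 libraries, background 8.12%) and by -1.17 at 16.5 months (SE 0.33, adjusted p = 0.0147, 10 of 10 libraries, background 8.99%). Thinning all libraries to the same depth outside miR-486 lost both of these calls, with differences of -1.52 at 15 months (adjusted p = 0.0647) and -0.88 at 16.5 months (adjusted p = 0.267). The differences of miR-19a-3p between the 3 later ages, 0.46, 0.74 and 0.28, did not pass the test (adjusted p from 0.170 to 0.707). For miR-19b-3p, with more reads, those at 15 and 16.5 v 13.5 months passed and that at 16.5 v 15 months did not. Whether the course of these members differed after 13.5 months was not tested.

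Of the members with the seed of miR-17, miR-17-5p had its lowest mean level at 15 months. miR-17-5p had 54 to 184 reads at 12 months (median 114), 30 to 145 at 13.5 months (median 65), 3 to 41 at 15 months (median 15) and 4 to 105 at 16.5 months (median 45). Its log2 level was 2.79 ± 0.56 (SD, n = 10), 2.55 ± 0.51, 1.64 ± 0.72 and 2.02 ± 0.51 at these ages. At 13.5 months no library lay below the lowest and 1 lay above the highest of the 12-month libraries, and 7 of the 10 libraries at 15 months lay below the lowest of either.

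At 13.5 v 12 months the difference of miR-17-5p was -0.27 (SE 0.23, adjusted p = 0.474). miR-17-5p fell by 1.11 on the log2 scale at 15 v 12 months (SE 0.25, adjusted p = 0.00206, 10 of 10 libraries, background 8.12%). It was lower by -0.75 at 16.5 v 12 months (SE 0.24, adjusted p = 0.0300, 10 of 10 libraries, background 8.99%) and by -0.84 at 15 v 13.5 months (SE 0.25, adjusted p = 0.00992, 9 of 10 libraries, background 14.2%). The differences at 16.5 v 13.5 months (-0.48, adjusted p = 0.170) and at 16.5 v 15 months (0.36, adjusted p = 0.409) did not pass. With factors of unwanted variation removed by RUVs, the approach of the study, the former passed with 1 factor (-0.46, adjusted p = 0.0133) and with 2 (-0.51, adjusted p = 0.00262), and the latter with 1 factor (0.53, adjusted p = 0.0174). All 3 calls were lost after the same thinning of libraries, with differences of -0.995 at 15 v 12 months (adjusted p = 0.0647), -0.51 at 16.5 v 12 months (adjusted p = 0.342) and -0.64 at 15 v 13.5 months (adjusted p = 0.197), and so was the change over the 4 ages (adjusted p = 0.108).

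The weaker of these calls were lost when single libraries were left out. Without library 7 at 13.5 months, the difference of miR-17-5p at 15 v 13.5 months was -0.65 (adjusted p = 0.0655), and it was -0.72 when only the libraries of these 2 ages entered the fit (adjusted p = 0.0521). At 16.5 v 12 months the call was lost without any of 8 libraries, with adjusted p from 0.0509 to 0.0630. These were libraries 1 (-0.72), 2 (-0.65), 5 (-0.70) and 6 (-0.69) at 12 months, library 5 at 13.5 months (-0.74) and libraries 2 (-0.69), 6 (-0.68) and 9 (-0.71) at 16.5 months. With library totals it was -0.91 (adjusted p = 0.195), and with a block by a number that the column names repeat at each age it was -0.68 (adjusted p = 0.0601).

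miR-20a-5p, with the same seed as miR-17-5p, had 6 to 49 reads at 12 months (median 15), 1 to 32 at 13.5 months (median 9), 0 to 8 at 15 months (median 3) and 0 to 12 at 16.5 months (median 7). Its level against 12 months differed by -0.38 (SE 0.36), -0.75 (SE 0.44) and -0.79 (SE 0.39), and no difference between ages passed the test (adjusted p from 0.192 to 0.995). In other settings miR-20a-5p was lower at 13.5 v 12 months with limma voom (-0.97, adjusted p = 0.0380) and at 15 v 12 months with library totals (-1.48, adjusted p = 0.0185). miR-18a-5p had 1 to 11 reads at 12 months (median 6), 0 to 11 at 13.5 months (median 2), 0 to 2 at 15 months (median 0) and 0 to 8 at 16.5 months (median 1). Its reads summed to 59, 39, 5 and 18 at the 4 ages, of which the third and the fourth also had the fewest counts outside miR-486. Its levels were not tested between ages. At 15 months 6 of the 10 libraries lay below the lowest of the 12-month libraries, and 9 of 10 below their mean. The median there was 0 reads, and every count of 0 takes the same lowest level. The part of depth in this was not tested.

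miR-92a-3p, by far the most abundant member, showed no difference that passed. Its reads numbered 54671 to 328095 at 12 months (median 169380), 36670 to 613163 at 13.5 months (median 128314), 30856 to 84397 at 15 months (median 46539.5) and 27736 to 116214 at 16.5 months (median 91319.5). Its log2 level was 13.25 ± 0.50 (SD, n = 10), 13.21 ± 0.80, 13.41 ± 0.62 and 13.32 ± 0.75, and the 4 ranges overlapped throughout.

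The 6 differences of miR-92a-3p between ages lay between -0.04 and 0.21 (SE 0.30, adjusted p from 0.637 to 0.952). Its SD between libraries of an age, from 0.50 to 0.80, was close to that of miR-17-5p, from 0.51 to 0.72, which had far fewer reads. 2 settings gave a change over age. With library totals (adjusted p = 0.00291) miR-92a-3p was lower at 15 months than at 12 months by -0.68 (adjusted p = 0.00317), where the median of all 105 was -0.84, and lower than at 13.5 months by -0.81 (adjusted p = 0.000523). It was higher there at 16.5 v 15 months by 0.49 (adjusted p = 0.0304). With 3 factors of unwanted variation removed (adjusted p = 0.0102) it was lower at 13.5 v 12 months by -0.46 (adjusted p = 0.00886), and higher at 15 v 13.5 months by 0.48 (adjusted p = 0.00687) and at 16.5 v 13.5 months by 0.54 (adjusted p = 0.00687).

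**Figure D2:**
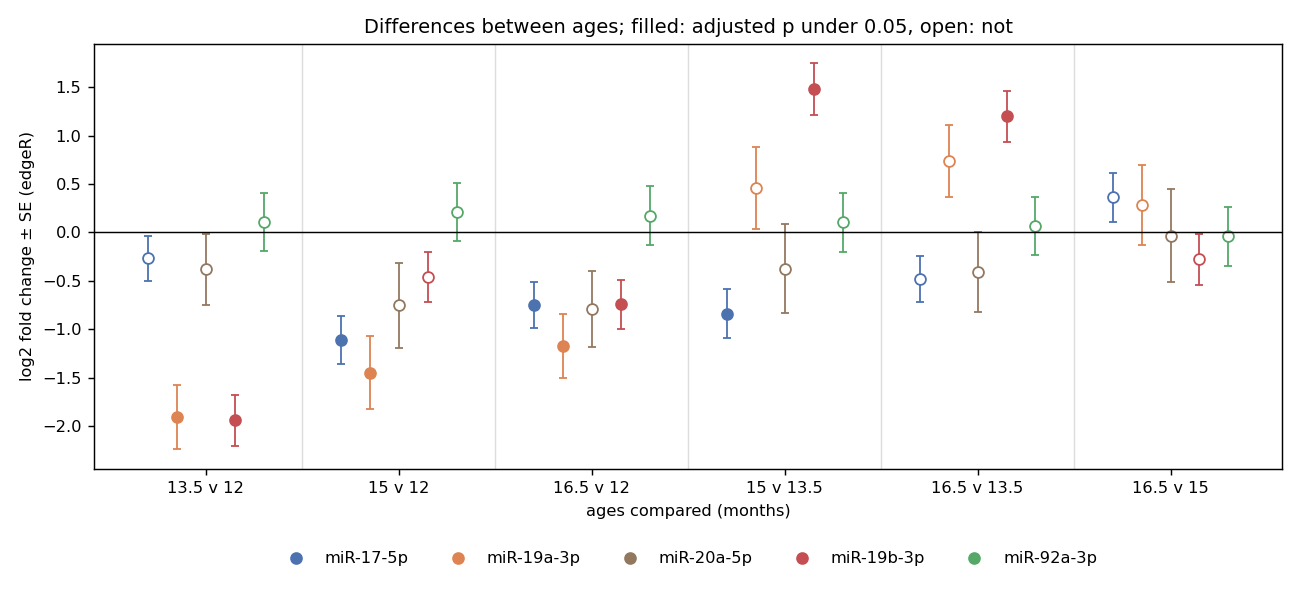
Log2 fold change and SE (edgeR) of the 5 members that could be tested, for the 6 pairs of ages; filled points have an adjusted p under 0.05 and open points do not. Both members with the seed of miR-19 lie near -1.9 at 13.5 v 12 months, where miR-17-5p lies at -0.27 and miR-92a-3p at 0.11.

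With the lower filter, which 5 of the 6 members passed, the median log2 fold change of the 5 was -0.38, -0.75 and -0.76 for 13.5, 15 and 16.5 months against 12 months. The medians of all 345 microRNAs were -0.05, -0.07 and -0.07. These values describe the 5 members only, since a low member can pass the filter through the age at which it is high.

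A ratio between members within a library does not depend on how the library is scaled. Relative to 1000 reads of miR-92a-3p, there were in the median library 2.16 reads of miR-19b-3p at 12 months, 0.497 at 13.5 months, 1.71 at 15 months and 1.32 at 16.5 months. The log2 ratio of miR-19b-3p to miR-92a-3p changed over age (permutation test, adjusted p = 0.0379 over the 35 tests of 5 ratios) and differed by -1.94 at 13.5 v 12 months (two-sided permutation test, adjusted p = 0.0192, 10 of 10 libraries). That of miR-19a-3p also changed over age (permutation test, adjusted p = 0.0411) and differed by -1.89 at 13.5 v 12 months (adjusted p = 0.0306, 9 of 10 libraries). None of the other 31 tests passed, among them the change over age of the ratios of miR-17-5p (adjusted p = 0.189), miR-18a-5p (adjusted p = 0.619) and miR-20a-5p (adjusted p = 0.717).

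Apart from that of miR-19b-3p at 13.5 v 12 months, these calls lay near the threshold and were lost when any of several single libraries was left out. The change over age of the miR-19b-3p ratio was lost without any of libraries 1, 2, 3 and 5 at 12 months or 3, 4, 8, 9 and 10 at 13.5 months (adjusted p from 0.0532 to 0.0796). That of the miR-19a-3p ratio was lost without any of libraries 1, 2, 3, 4, 5 and 10 at 12 months or 1, 2, 3, 4, 8, 9 and 10 at 13.5 months (adjusted p from 0.0507 to 0.117). The miR-19a-3p ratio at 13.5 v 12 months was lost without any of libraries 1, 2, 3 and 5 at 12 months or 3, 4, 8, 9 and 10 at 13.5 months, with differences from -1.64 to -1.89 (adjusted p from 0.0532 to 0.0752). In the other direction, the miR-19b-3p ratio passed at 15 v 13.5 months without library 3 at 15 months (1.55, adjusted p = 0.0273) and at 16.5 v 13.5 months without library 6 at 16.5 months (1.39, adjusted p = 0.0436). Both also passed without the libraries that had under 20 counts of the member (1.55, adjusted p = 0.0182, and 1.31, adjusted p = 0.0450).

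With miR-17-5p as the reference, chosen after the values had been seen, the separation was clearer. There were 2.04 to 3.90 reads of miR-19b-3p for each read of miR-17-5p at 12 months (median 3.02), 0.540 to 1.82 at 13.5 months (median 0.693), 3 to 8.14 at 15 months (median 4.14) and 2.29 to 4.03 at 16.5 months (median 3.11). The libraries at 13.5 months did not overlap those of any other age, and in the median library at that age miR-17-5p outnumbered miR-19b-3p.

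The log2 ratio of miR-19b-3p to miR-17-5p differed by -1.73 at 13.5 v 12 months, and rose again from there by 2.39 to 15 months and by 1.80 to 16.5 months (two-sided permutation tests, each p = 1e-05, the smallest that the resamples can give, adjusted p = 7e-05 over 28 tests, 10 of 10 libraries). It was higher at 15 v 12 months by 0.65 (permutation test, adjusted p = 0.00622) and lower at 16.5 v 15 months by -0.58 (permutation test, adjusted p = 0.0104), while 16.5 and 12 months differed by 0.07 (permutation test, adjusted p = 0.748). miR-19a-3p relative to miR-17-5p gave -1.69 at 13.5 v 12 months, then 1.55 from 13.5 to 15 months and 1.52 from 13.5 to 16.5 months (permutation tests, adjusted p = 0.001, 0.001 and 0.00441, 10 of 10 libraries each). No test of miR-18a-5p or miR-20a-5p relative to miR-17-5p passed (permutation tests, adjusted p from 0.119 to 0.982).

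**Figure D3:**
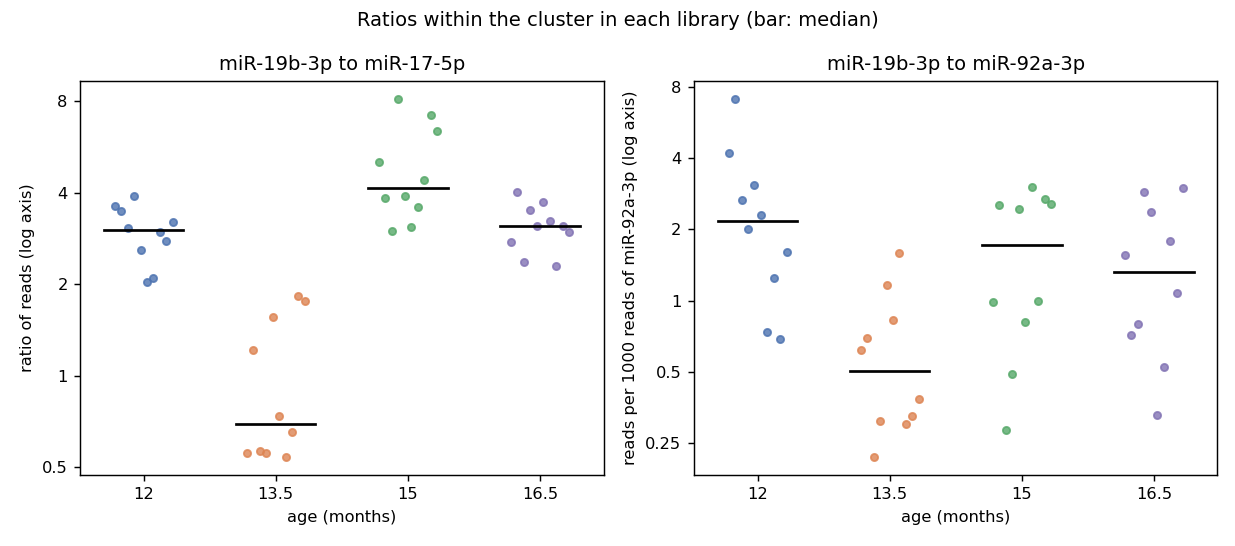
Reads of miR-19b-3p for each read of miR-17-5p (left) and for 1000 reads of miR-92a-3p (right) in each library by age in months, on log axes; bars are medians of 10 libraries. At 13.5 months the left ratio runs from 0.540 to 1.82, below the range of each other age, while the ranges on the right overlap.

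Other values moved with the low miR-19 level at 13.5 months. With the identical rows of miR-486 counted once, 2 of 4 tested red cell markers were lower at 13.5 v 12 months, as was 1 of 2 tested myeloid markers, and neither of 2 tested lymphoid markers passed the test, beside 14.3% of the 105 that were lower and 15.2% that were higher. At 16.5 v 12 months, where miR-17-5p and both members with the miR-19 seed were lower, 2 of 2 tested lymphoid markers were higher (background 13.3%). At 15 v 12 months 1 of 4 red cell markers, miR-486, was higher (background 7.62%) and 1, miR-16-5p, was lower (background 16.2%). At 12 and 13.5 months the summed counts of the lists overlapped, with red cell medians of 47.9% and 47.8% of the counts, myeloid medians of 0.346% and 0.284% and lymphoid medians of 0.0282% and 0.0452%. The red cell shares again set 1 of 2 identical rows against totals with both, which leaves them little room to differ. Fold changes also varied with base composition. Among the 90 of 105 tested microRNAs with a sequence, 15 had no more G and C than miR-19b-3p, counting miR-19b-3p itself. Of these, 7 were lower at 13.5 v 12 months, miR-19b-3p among them, and 1 was higher, against the same 14.3% and 15.2% of all 105. Across the 90 of 105 microRNAs with a sequence, G and C content and log2 fold change had a Pearson correlation of 0.33, 0.38 and -0.01 for 13.5, 15 and 16.5 months against 12 months. The part of marker cells or of base composition in the result was not tested.

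The labels name no sequencing batch. The library names at 13.5 months carry a letter and number series of their own and those at 15 months carry 2 others, so that a batch marked by these names cannot be told apart from these ages. The names at 12 and 16.5 months share 1 series of single letters, and whether those libraries were sequenced together was not given. The series at 15 months gave a comparison within an age. At 15 months, the mean log2 level of miR-19b-3p was 3.61 in 3 libraries of the first naming series and 3.92 in 7 of the second. The corresponding means were 1.65 and 1.64 for miR-17-5p, and 13.74 and 13.27 for miR-92a-3p, with ranges that overlapped in each case.

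Each hairpin yields 2 strands, and the strand named as the main one was not always the more abundant in blood. The opposite strands of the first hairpins had these sequences, which share no seed with a member.
miR-17-3p: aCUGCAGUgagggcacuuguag
miR-18a-3p: aCUGCCCUaagugcuccuucug
miR-17-3p had 4920 reads against 2553 of miR-17-5p, and was above it in 38 of 40 libraries. miR-17-5p made up 40.8% of the reads of its hairpin in the median library at 12 months, 28.3% at 13.5 months, 26.5% at 15 months and 33.2% at 16.5 months. The imbalance was larger for Mir18, with 5975 reads of miR-18a-3p against 121 of miR-18a-5p, whose share was at most 12.8% in any library.

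For Mir20a the main strand led, with 395 reads of miR-20a-5p against 81 of miR-20a-3p, and for Mir92-1 the main strand was accompanied by 146 reads of miR-92a-1-5p (0 to 14 per library). No read of miR-19a-5p or miR-19b-1-5p was counted in 406820779 counts, which allows at most 0.00737 CPM before scaling. The same held for miR-19b-2-5p and miR-92a-2-5p, the opposite strands of the hairpins on chromosome X.

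**Figure D4:**
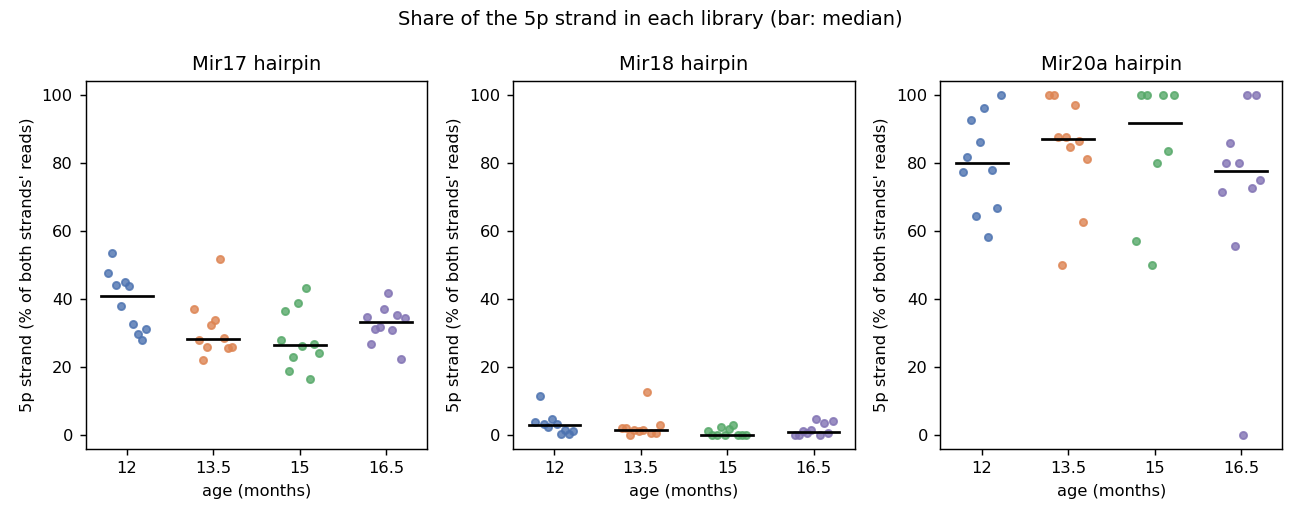
Reads of the 5p strand as a percentage of the reads of both strands in each library, for 3 hairpins of the cluster, by age in months; bars are medians. The 5p strand of Mir18 is at 12.8% or less in every library, that of Mir17 has medians from 26.5% to 40.8%, and that of Mir20a, with few reads, spreads from 0% to 100%.

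The opposite strands gave the Mir17 and Mir18 hairpins a further readout. miR-17-3p had 97 to 326 reads at 12 months (median 163.5), 63 to 383 at 13.5 months (median 186.5), 10 to 56 at 15 months (median 39.5) and 7 to 199 at 16.5 months (median 102). It changed over age (adjusted p = 0.000491). Relative to 12 months, its log2 fold change was 0.28 in the 13.5-month group (SE 0.14, adjusted p = 0.138), -0.40 in the 15-month group (SE 0.15, adjusted p = 0.0432, background 16.2%) and -0.27 in the 16.5-month group (SE 0.14, adjusted p = 0.177). Relative to 13.5 months, it was -0.68 in the 15-month group (SE 0.15, adjusted p = 0.000251, background 30.5%) and -0.54 in the 16.5-month group (SE 0.14, adjusted p = 0.00214, background 21.9%). miR-17-3p was thus lower at 15 months, as was miR-17-5p from the same hairpin, and neither fell at 13.5 months by the test. The call of miR-17-5p at 15 v 12 months was lost after thinning to the same depth (edgeR, adjusted p = 0.0647). No other setting is given for miR-17-3p. miR-18a-3p, with 20 to 497 reads per library, did not pass over age (adjusted p = 0.420), and its 6 differences lay between -0.26 and -0.01.

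Clusters elsewhere in the genome carry the same seeds. The miR-106b-25 cluster lies in the gene Mcm7 on the minus strand of chromosome 5, with hairpins Mir106b (chr5:138165737-138165818), Mir93 (chr5:138165523-138165610) and Mir25 (chr5:138165321-138165404). Its mature strands are shown to compare their seeds with those of miR-17-5p and miR-92a-3p.
miR-93-5p: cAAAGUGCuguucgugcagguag
miR-106b-5p: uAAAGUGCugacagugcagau
miR-25-3p: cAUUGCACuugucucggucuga
It has no miR-19 seed. miR-93-5p had 48 to 2744 reads per library and miR-106b-5p 1 to 290, so that most reads with the seed AAAGUGC came from Mcm7. miR-25-3p, with the seed of miR-92a-3p, had 5393 to 155930 reads.

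The 2 strands from Mcm7 with the seed of miR-17-5p were lower at 15 and 16.5 months than at 12 months, as miR-17-5p was at these ages. Relative to 12 months, miR-93-5p was lower in the 15-month group, with a log2 fold change of -0.67 (SE 0.18, adjusted p = 0.00595), and in the 16.5-month group, with -0.70 (SE 0.18, adjusted p = 0.00405), while that of the 13.5-month group was 0.29 (adjusted p = 0.221). For miR-106b-5p, under the lower filter, the corresponding values were -1.26 (adjusted p = 0.00992), -1.41 (adjusted p = 0.00458) and -0.24 (adjusted p = 0.653), with an SE between 0.32 and 0.34. The background of lower microRNAs at 15 v 12 and 16.5 v 12 months was 16.2% and 10.5% of the 105, and 8.12% and 8.99% of the 345. miR-25-3p, like miR-92a-3p, did not pass over age (adjusted p = 0.321).

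The log2 ratio of miR-17-5p and miR-20a-5p together to miR-93-5p and miR-106b-5p together was -3.75 ± 0.27 (SD, n = 10) at 12 months, -4.28 ± 0.25 at 13.5 months, -4.13 ± 0.46 at 15 months and -3.74 ± 0.35 at 16.5 months. It changed over age (permutation test, adjusted p = 0.0091 over 14 tests), differed by -0.53 at 13.5 v 12 months (two-sided permutation test, adjusted p = 0.00644, 9 of 10 libraries) and by 0.54 at 16.5 v 13.5 months (adjusted p = 0.0091, 9 of 10 libraries). The part of this seed that came from the miR-17-92 cluster had its lowest mean at 13.5 months, where the level of miR-17-5p itself had not passed against 12 months. The log2 ratio of miR-92a-3p to miR-25-3p, from 0.78 ± 0.68 at 13.5 months to 0.98 ± 0.62 at 15 months, did not pass over age (permutation test, adjusted p = 0.948).

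The cluster on chromosome X, which also carries hairpins of miR-19b-3p and miR-92a-3p, had few reads that belong to it alone. They numbered 25 for miR-106a-5p, 34 for miR-20b-5p and 0 for miR-18b-5p over all libraries. miR-363-3p had 1 to 60 reads per library and did not pass over age with the lower filter (adjusted p = 0.0968). miR-32-5p, which has the seed of miR-92a-3p, had 45 reads in all.

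Within an age, the levels of the members were correlated over the 10 libraries. Of 60 correlations, 15 pairs at each of 4 ages, 19 had an adjusted p under 0.05 by permutation of Pearson's r, and 14 by that of Spearman's rho. Of these 19, 12 were positive and joined members other than miR-92a-3p, and all 7 negative ones joined miR-92a-3p to another member. On the share of counts outside miR-486 in place of log2 CPM, 22 of the 60 passed. Pairs of other microRNAs were not tested, so these counts have no background and cannot be read as particular to the cluster.

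The pair with the same seed, miR-19a-3p and miR-19b-3p, was correlated at 12 months (r = 0.89, rho = 0.92, permutation adjusted p = 0.00876), at 13.5 months (r = 0.81, rho = 0.85, permutation adjusted p = 0.0241) and at 15 months (r = 0.87, rho = 0.78, permutation adjusted p = 0.0086), but not by the test at 16.5 months (r = 0.42, rho = 0.52, permutation adjusted p = 0.360). Without the 2 libraries farthest from the median of miR-19a-3p, r was 0.71, 0.83, 0.70 and 0.09. miR-17-5p and miR-19b-3p passed at 12, 15 and 16.5 months (r = 0.86, 0.74 and 0.85, permutation adjusted p = 0.012, 0.0476 and 0.0136), and r was 0.71, 0.75 and 0.83 without the 2 libraries farthest from the median of miR-17-5p. Spearman's rho was 0.83, 0.75 and 0.83 at these ages, and the rho at 15 months did not pass (permutation adjusted p = 0.0292, 0.0689 and 0.0292). At 13.5 months r was 0.34 (rho = 0.33, permutation adjusted p = 0.527).

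Of the 20 correlations of miR-92a-3p with the other members, 15 were negative. The 5 positive ones, from 0.02 to 0.39, did not pass, and they included those with miR-19a-3p (r = 0.39) and miR-19b-3p (r = 0.27) at 13.5 months. With miR-17-5p its r was negative at all 4 ages, from -0.86 to -0.57, and passed at 15 months (r = -0.74, rho = -0.71, permutation adjusted p = 0.0476) and at 16.5 months (r = -0.86, rho = -0.81, permutation adjusted p = 0.0136). Without the 2 libraries farthest from the median of miR-17-5p these were -0.56 and -0.71. The most negative value was that with miR-20a-5p at 15 months (r = -0.95, rho = -0.90, permutation adjusted p = 0.0086, and -0.80 without the 2 farthest libraries). At that age miR-20a-5p had at most 8 reads in a library and 0 in 2 libraries. Within a library all members share the same scaling factor, and its part in these correlations was not tested.

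**Figure D5:**
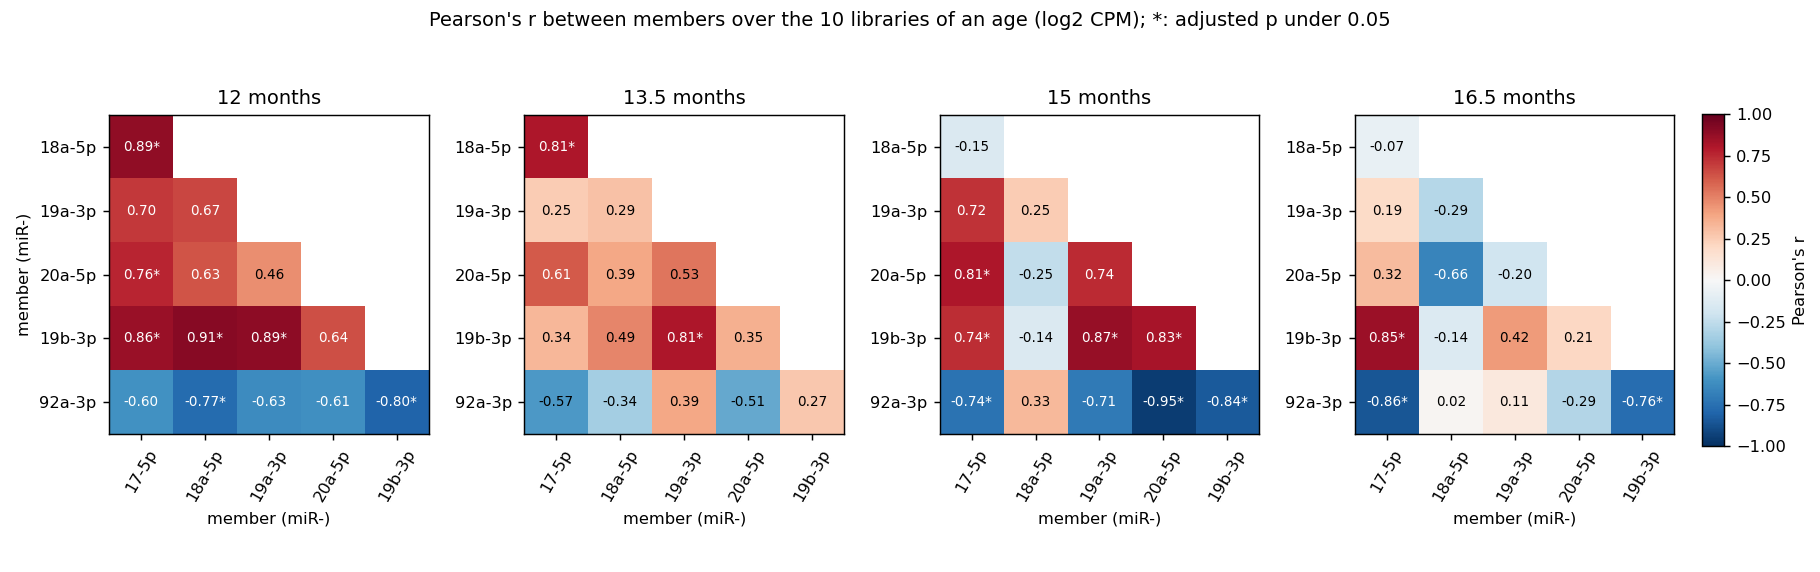
Pearson's r between each pair of members over the 10 libraries of an age, on log2 CPM; colour and number give r and an asterisk marks an adjusted p under 0.05. The bottom row, miR-92a-3p against the others, holds all 7 negative values that passed, and the 12 positive ones lie above it.

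Across all 40 libraries, which share animals and depth, the microRNAs outside the cluster with levels most like those of each member differed between members. For miR-17-5p these were miR-16-5p (r = 0.84), miR-93-5p (r = 0.83) and miR-15a-5p (r = 0.82). For miR-19b-3p they were miR-144-5p (r = 0.79), miR-21a-5p (r = 0.72) and miR-148a-3p (r = 0.71), and for miR-19a-3p they were miR-148a-3p (r = 0.68), miR-223-3p (r = 0.66) and miR-21a-5p (r = 0.61). miR-20a-5p was most like miR-451a (r = 0.65), miR-23b-3p (r = 0.64) and miR-16-5p (r = 0.57). miR-92a-3p had none of these among its closest, which were miR-676-3p (r = 0.85), miR-328-3p (r = 0.84) and miR-423-5p (r = 0.81). miR-21a-5p and miR-148a-3p were thus close to both members with the miR-19 seed, and miR-16-5p to both with the miR-17 seed.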

How the data were processed

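Small RNA libraries (TruSeq) of whole blood were sequenced on an Illumina HiSeq2000 as single reads. Per the study's methods, the authors trimmed reads with cutadapt, discarded those under 18 bases and counted them with miRDeep2 against mm10 and miRBase without mismatches, from 2 bases upstream to 5 downstream of each mature strand. The quality tool in the submitters' processing notes was FastQC 0.11.5. The deposited table holds raw read counts per microRNA, and the authors' normalized table was not used. Column names gave the age but not which sample.

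The counts were fitted with edgeR 4.0.16 (R 4.3.3, limma 3.58.1) over the 40 libraries with TMM factors and a quasi-likelihood test, after tests on simulated data. Log2 CPM used a prior count of 2 and ratios a pseudocount of 0.5, with 100000 resamples by scipy 1.17.1. DESeq2 1.42.0 and limma voom were among the alternatives. Named microRNAs were the members, their opposite strands, the related clusters, and the 3 tested microRNAs with the highest Pearson's r to each tested member. Members and lists were chosen with earlier results of these data known. No 2 libraries of an age agreed within sampling noise (smallest chi-square of 180 pairs 19.4 per degree of freedom). p-values take libraries of different ages as independent, and limits for a count of 0 cover counting error only.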

Additional observations from a re-analysis of the deposited data

Results flagged for a closer look

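Of 52 groups of 10 libraries examined, 3 held a library far from the others, about as many as chance gives at 1 in 20 groups. The log2 CPM of miR-17-5p was 3.82 in library 7 at 13.5 months, where the other libraries lay between 2.11 and 2.92. The log2 CPM of miR-20a-5p was -2.50 in library 6 at 16.5 months, which had 0 reads of it, where the others lay between -1.01 and 0.46. In the same library the log2 ratio of miR-20a-5p to miR-92a-3p was -16.93, where the others lay between -14.35 and -13.04.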

How the results depend on the processing

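The limits of these data are the few reads behind 4 of the 6 members, the separate series of library names at 13.5 and 15 months, and libraries that came from the same animals. Scaling by library totals put the median of the 105 microRNAs at -0.84 for 15 v 12 months, from -0.06, and at -0.81 for 15 v 13.5 months, from -0.02. The fall of miR-19b-3p at 13.5 v 12 months passed under all 13 other settings, with -2.35 to -1.61, as did that of miR-19a-3p under all 12, with -2.32 to -1.48. The change of both over age passed throughout, except that of miR-19b-3p with age as a straight line (adjusted p = 0.307), a fit that cannot follow a fall and a rise. That of miR-17-5p was lost at equal depth (adjusted p = 0.108), a setting with fewer reads. No value could be had for miR-20a-5p, miR-19a-3p and miR-17-5p under the stricter minimum, nor for a block by the replicate numbers in the labels, which the columns do not carry.

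Where a setting turned a direction, the cause was not tested. miR-92a-3p changed over age with library totals (adjusted p = 0.00291) and with 3 factors of unwanted variation (0.0102). With library totals its differences were -0.68 (15 v 12), -0.19 (16.5 v 12), -0.81 (15 v 13.5), -0.32 (16.5 v 13.5) and 0.49 (16.5 v 15 months). With 1 factor they were -0.062 (13.5 v 12), -0.20 (16.5 v 12) and -0.13 (16.5 v 13.5), with 2 factors -0.14, -0.12 (15 v 12), -0.19 and -0.050, and with 3 factors -0.46 (13.5 v 12) and 0.057 (16.5 v 15). Limma voom gave -0.024 (16.5 v 12), -0.014 (15 v 13.5) and -0.075 (16.5 v 13.5), no filter -0.060 (15 v 13.5) and -0.098 (16.5 v 13.5), and the lower filter -0.012 (16.5 v 13.5). For miR-20a-5p, equal depth gave 0.76 (13.5 v 12), 0.30 (16.5 v 12) and 1.25 (16.5 v 15), limma voom 0.33 (15 v 13.5) and 0.21 (16.5 v 13.5), and for 16.5 v 15 months library totals gave 0.50 and 1, 2 and 3 factors 0.15, 0.061 and 0.057. With library totals miR-19b-3p differed by 0.27 (16.5 v 15) and miR-19a-3p by -0.22 (15 v 13.5). With miR-17-5p as reference the miR-19b-3p ratio was 0.65 (15 v 12) and 0.069 (16.5 v 12), a comparison added after the data were seen.

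Leaving out single libraries turned further directions. Differences of miR-92a-3p then ran from -0.12 to 0.23 (13.5 v 12), from -0.012 to 0.31 (16.5 v 12), from -0.062 to 0.34 (15 v 13.5), from -0.12 to 0.30 (16.5 v 13.5) and from -0.22 to 0.13 (16.5 v 15 months). Those of miR-20a-5p ran from -0.52 to 0.046 (15 v 13.5), from -0.55 to 0.031 (16.5 v 13.5) and from -0.15 to 0.11 (16.5 v 15). The ratio of miR-19b-3p to miR-92a-3p at 16.5 v 15 months ran from -0.37 to 0.082. Adjusted p for the change over age ran from 0.0111 to 0.0796 for this ratio and from 0.0104 to 0.117 for that of miR-19a-3p.

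A replicate block by a number that the column names repeat at each age was added after the data were seen. It left miR-17-5p at -0.68 at 16.5 v 12 months (adjusted p = 0.0601) and turned miR-20a-5p to 0.21 at 16.5 v 15 months, and changed no other call of the 5 tested members. The column names hold 10 such numbers, each shared by all 4 ages, and no source says whether they name the mouse. The number was not shown to pair libraries. The 60 pairs with the same number had a mean correlation of -0.005, 24 of them were over 0.1, and 6 of the 40 libraries correlated best with their own number. With correlations that ran from -0.87 to 0.86, this check could not show that the number is not the mouse.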
